A study of Mus musculus with 9 samples.

Results

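The 8 endothelial genes (Pecam1, Cldn5, Kdr, Cdh5, Tek, Vwf, Flt1 and Egfl7) and 2 pericyte genes (Pdgfrb and Rgs5) described here were measured in the mouse trigeminal ganglion (TG) after inflammation of the temporomandibular joint (TMJ). They were picked by name, and a gene's level was taken as the sum of FPKM (fragments counted, scaled to transcript length and to the mapped total of the library) over the transcripts that the annotation assigns to it. They made up 10 of 21809 gene sums, and all 10 passed the minimum mean of 0.1 FPKM that left 16096 gene sums for testing. Male wild-type C57BL/6 mice, 8 weeks old, received 10 µl of complete Freund's adjuvant (CFA, 5 mg/ml) or 10 µl of saline into the TMJ on one side. CFA, an oil emulsion with killed mycobacteria, inflames the joint and brings on facial pain, and the TG holds the sensory neurons that serve the joint. Total RNA was sequenced after removal of ribosomal RNA in 3 libraries a group: saline (labelled day 3, so no day 6 control was at hand), CFA3D (day 3) and CFA6D (day 6, replicates 4 to 6). Each library pooled unilateral TG punches from 3 mice, so differences between mice within a pool could not be seen.

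Blood vessels in a sensory ganglion bring oxygen and nutrients to the neuron cell bodies, and ganglion capillaries are known to be leakier than those of the brain. Endothelial cells line the vessel, hold together through cadherin and claudin junctions, and read growth signals through the VEGF receptors (Kdr, Flt1) and the angiopoietin receptor (Tek). Pericytes sit on the outside of capillaries and are recruited through PDGF-B and its receptor Pdgfrb. In whole-ganglion RNA, fewer cells of a type and less RNA per cell cannot be told apart.

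The labelled tissue held its defining markers: all 10 neuron, 6 satellite glia and 7 Schwann cell markers were above 0 in every library, with summed levels of 2451 to 3724, 762 to 1105 and 2405 to 3426 FPKM. Read pairs were estimated by taking the most common low value of FPKM times length, in single-transcript genes, as a single pair. They came to about 30100000 to 42300000 a library. That put about 215 (Tek) to 3710 (Vwf) pairs on a gene in a library. It is not the sequenced depth, and it was not checked against the reads that the study reports for each group. Saline library 3 and CFA6D library 6 stood apart. Saline library 3 had a summed level of 10660 FPKM for 6 pituitary genes, against 8.89 to 1115 FPKM in the other libraries. CFA6D library 6 had 2630 FPKM for 7 marrow granule genes, against 23.6 to 132 FPKM elsewhere, and 57.3 FPKM for 9 platelet genes, against 9.74 to 18.7 FPKM elsewhere. Saline library 2 had the highest sums for 7 erythroid (5790 FPKM), 8 skeletal muscle (175 FPKM) and 7 adipocyte or bone genes (108 FPKM). The other libraries held 1667 to 3863, 1.87 to 76.9 and 2.37 to 36.0 FPKM. Saline library 2 was kept where saline library 3 and CFA6D library 6 were left out together.

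None of the 10 genes passed the test between groups. On CFA3D all 10 were above saline, with a median log2 change of 0.15, but every group of 3 overlapped and 0 of 10 reached an unadjusted p under 0.05 in limma. On CFA6D 6 of 10 were above saline, with a median of 0.03, and again 0 of 10 reached that threshold. Most of the genes instead went up and down together between libraries of one group: CFA3D library 2 held the highest level of 8 genes, while CFA3D library 3 held the lowest of 5.

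**Figure D1:**
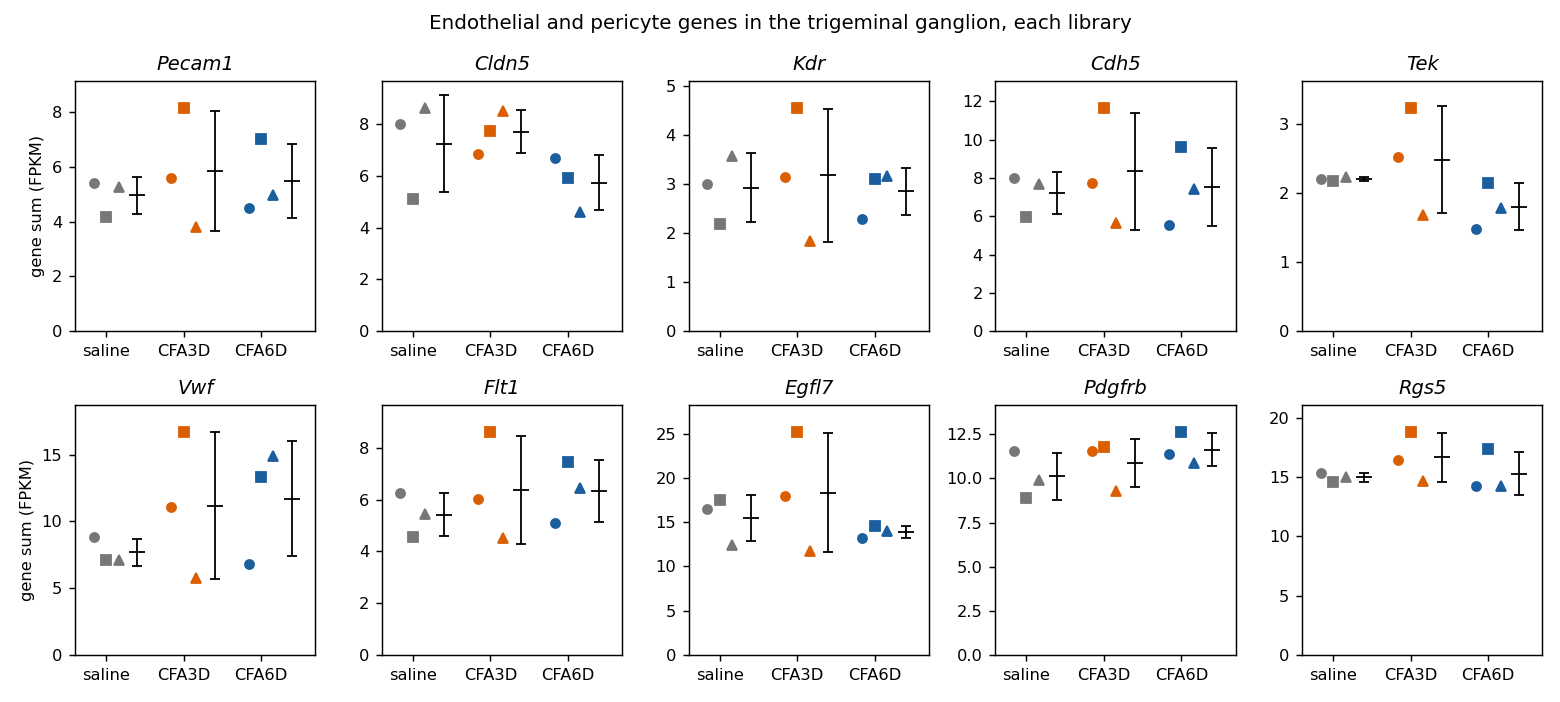
Gene sums in FPKM for the 10 genes (y axis, from 0) in the saline, CFA3D and CFA6D groups (x axis). Circle, square and triangle stand for the first, second and last replicate number of a group, and the black bar with whiskers is the mean ± SD of 3 libraries; CFA3D library 2 (orange square) is the highest point in 8 panels.

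Kdr (VEGF receptor 2, the main receptor through which VEGF-A drives endothelial growth) and Tek (Tie2, the receptor for angiopoietins) had the lowest levels of the 10. Kdr (chr5:75932827-75978458, minus strand, GRCm38) measured 3.01, 2.18 and 3.59 FPKM in saline libraries 1 to 3, 3.14, 4.56 and 1.84 FPKM in CFA3D libraries 1 to 3, and 2.29, 3.11 and 3.16 FPKM in CFA6D libraries 4 to 6. The 2 CFA3D extremes lay outside all other values, and the groups overlapped. Its log2 change was 0.05 (95% interval -0.64 to 0.75) on CFA3D and -0.02 (-0.72 to 0.67) on CFA6D.

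Tek (chr4:94739289-94874976, plus strand) measured 2.20, 2.18 and 2.23 FPKM in saline, 2.53, 3.23 and 1.69 FPKM on CFA3D, and 1.47, 2.15 and 1.79 FPKM on CFA6D. Its saline libraries were nearly equal, and all 3 CFA6D libraries were below all 3 saline libraries, narrowly for library 5. It was the only one of the 10 genes whose CFA6D and saline groups did not overlap, where 16.2% of all gene sums tested did not. The log2 change was 0.12 (-0.40 to 0.64) on CFA3D and -0.29 ± 0.23 (SE, adjusted p = 0.691) on CFA6D. Between CFA6D and CFA3D it was -0.41 (-0.93 to 0.11), and -0.65 without CFA3D library 3, then with an unadjusted p under 0.05.

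Flt1 (VEGF receptor 1, which binds VEGF-A more tightly than Kdr does but signals weakly, and is also made as a secreted decoy) is on chr5:147561604-147726011, minus strand. It measured 6.24, 4.57 and 5.45 FPKM in saline, 6.03, 8.63 and 4.50 FPKM on CFA3D, and 5.08, 7.46 and 6.47 FPKM on CFA6D. CFA3D library 2 was again the highest and CFA3D library 3 the lowest, and the groups overlapped. The log2 change was 0.19 (-0.33 to 0.72) on CFA3D and 0.22 (-0.31 to 0.74) on CFA6D. A pair of annotated transcripts held most of the sum: Flt1-203, with 13 exons and a coding length of 2064 bases, at a mean of 2.77 FPKM, and Flt1-202, with 30 exons and a coding length of 3999 bases, at 2.36 FPKM. The known secreted form of Flt1 lacks the membrane span and kinase of the full receptor. The ratio of the short to the long form was 1.17, 1.38 and 1.16 in saline, 1.07, 1.20 and 1.39 on CFA3D, and 1.21, 1.10 and 1.03 on CFA6D. The 3 groups' ratios overlapped, with means of 1.24 ± 0.13, 1.22 ± 0.16 and 1.11 ± 0.09 (SD, n = 3).

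Pecam1 (CD31) and Cdh5 (VE-cadherin) are adhesion proteins of the contacts between endothelial cells. Pecam1 (chr11:106654217-106750628, minus strand) measured 5.42, 4.18 and 5.26 FPKM in saline, 5.58, 8.15 and 3.82 FPKM on CFA3D, and 4.49, 7.01 and 4.95 FPKM on CFA6D. Cdh5 (chr8:104101625-104144511, plus strand) measured 8.01, 5.95 and 7.70 FPKM in saline, 7.73, 11.7 and 5.64 FPKM on CFA3D, and 5.55, 9.64 and 7.42 FPKM on CFA6D. Both were highest in CFA3D library 2 and next in CFA6D library 5, and no pair of groups was separate. On CFA3D their log2 changes were 0.18 (-0.42 to 0.77) and 0.15 (-0.46 to 0.77), and on CFA6D 0.13 (-0.47 to 0.72) and 0.04 (-0.57 to 0.65).

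Cldn5 (claudin-5, the main claudin of endothelial tight junctions) followed another order of libraries. Cldn5 (chr16:18776847-18778262, plus strand, 1 exon) measured 8.01, 5.11 and 8.64 FPKM in saline, 6.87, 7.75 and 8.52 FPKM on CFA3D, and 6.68, 5.94 and 4.61 FPKM on CFA6D. Its highest value was in saline library 3, its second highest in CFA3D library 3, where 5 other genes were at their lowest, and its lowest in CFA6D library 6. All 3 CFA6D libraries were below all 3 CFA3D libraries. The log2 change between CFA6D and CFA3D was -0.43 ± 0.21 (SE, 95% interval -0.90 to 0.04, adjusted p = 0.679), the nearest of the 10 genes to the threshold in that comparison. When only those 2 groups were fitted, or when saline library 2 or CFA6D library 4 was left out, its unadjusted p came under 0.05, with log2 changes of -0.43, -0.43 and -0.55. Against saline the CFA6D change was -0.31 (-0.78 to 0.15), and -0.54 without saline library 2, again with an unadjusted p under 0.05.

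Vwf (von Willebrand factor, which tethers platelets to the injured vessel wall) varied most. Vwf (chr6:125546774-125686679, plus strand) measured 8.86, 7.09 and 7.10 FPKM in saline, 11.1, 16.7 and 5.78 FPKM on CFA3D, and 6.85, 13.4 and 14.9 FPKM on CFA6D. The 2 highest CFA6D values and the 2 highest CFA3D values were above all saline values, while the remaining library of each day was below them. Its log2 changes were 0.42 ± 0.38 on CFA3D and 0.53 ± 0.38 on CFA6D (SE), with adjusted p-values of 0.997 and 0.661, and the widest intervals of the 10 genes (-0.44 to 1.27 and -0.32 to 1.39) went with them. Without CFA3D library 3 the CFA3D change was 0.83, and without CFA6D library 4 the CFA6D change was 0.88, both with an unadjusted p under 0.05. Megakaryocytes and platelets also carry Vwf RNA, and CFA6D library 6, with the second highest Vwf level, held the highest level of all 9 platelet and all 7 marrow granule genes. The platelet sum was 13.1 to 18.7 FPKM in saline, 9.74 to 14.7 FPKM on CFA3D and 10.7 to 57.3 FPKM on CFA6D, none of the 9 was at 0 in any library, and its part in the Vwf level was not tested. CFA3D library 2, with the highest Vwf level, had a platelet sum of 14.7 FPKM. Without CFA6D library 6 the Vwf change on CFA6D was 0.32.

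Egfl7 (an endothelial secreted protein of the vessel matrix) had the highest summed FPKM of the 8 endothelial genes. Egfl7 (chr2:26580014-26593120, plus strand) measured 16.5, 17.5 and 12.5 FPKM in saline, 18.0, 25.2 and 11.8 FPKM on CFA3D, and 13.2, 14.6 and 14.0 FPKM on CFA6D. The CFA3D libraries held both its highest and its lowest value, and the groups overlapped. Its log2 change was 0.19 (-0.35 to 0.73) on CFA3D and -0.14 (-0.67 to 0.40) on CFA6D. Without CFA3D library 3 the CFA3D change was 0.47, and the change between CFA6D and CFA3D went from -0.33 to -0.61, both with an unadjusted p under 0.05. Most of the sum came from transcripts that keep an intron. Those annotated as retained intron made up 62.5% of the sum and protein-coding transcripts 23.4%, with the highest mean in Egfl7-206, a retained-intron transcript at 4.35 FPKM. The reads were divided among 19 overlapping Egfl7 transcripts, so the level of any one of them is uncertain.

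Egfl7 is the host of miR-126, the best known endothelial microRNA, whose hairpin Mir126a (chr2:26591357-26591429, plus strand) lies in an intron of 8 and an exon of 1 of the 19 annotated Egfl7 transcripts. The mature strand is shown because it joins the Egfl7 locus to an endothelial readout that the gene sums do not contain. Capitals mark the seed, bases 2 to 8 (RefSeq, GRCm38.p6, chr2:26591402-26591423, plus strand).
mmu-miR-126a-3p: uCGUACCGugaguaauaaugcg
The hairpin was listed at 0.0258 to 0.0430 FPKM over the 9 libraries. A single read pair in its 73 bases would be worth 0.324 to 0.456 FPKM, so every listed value was below that of 1 pair and below the minimum for testing. The opposite-strand hairpin Mir126b was listed at 0 in all 9 libraries. Mature microRNAs are shorter than the fragments these libraries hold, so no level of miR-126 was read from them.

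The pericyte genes had the smallest spread within groups of the 10. Rgs5 (a regulator of G protein signalling and a marker of pericytes; chr1:169655501-169695813, plus strand) measured 15.4, 14.6 and 15.0 FPKM in saline, 16.5, 18.9 and 14.7 FPKM on CFA3D, and 14.3, 17.4 and 14.3 FPKM on CFA6D. The highest library was 1.32 times the lowest, against 2.90 times for Vwf. The log2 change was 0.15 (-0.10 to 0.40) on CFA3D and 0.02 (-0.23 to 0.27) on CFA6D, the narrowest intervals of the 10 genes.

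Pdgfrb (the receptor through which PDGF-B draws pericytes to the vessel; chr18:61045150-61085061, plus strand) measured 11.5, 8.88 and 9.93 FPKM in saline, 11.5, 11.8 and 9.28 FPKM on CFA3D, and 11.4, 12.7 and 10.9 FPKM on CFA6D. Its lowest values were in saline library 2 and CFA3D library 3, and the groups overlapped. The log2 change was 0.10 (-0.19 to 0.39) on CFA3D and 0.20 (-0.09 to 0.49) on CFA6D, with an adjusted p of 0.609 on CFA6D. Without saline library 1 the CFA6D change was 0.30, with an unadjusted p under 0.05.

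By level in saline the order was Egfl7 (15.5 ± 2.65 FPKM, SD, n = 3), Rgs5 (15.0 ± 0.40), Pdgfrb (10.1 ± 1.34), Vwf (7.68 ± 1.02), Cldn5 (7.25 ± 1.88), Cdh5 (7.22 ± 1.11), Flt1 (5.42 ± 0.84), Pecam1 (4.95 ± 0.68), Kdr (2.93 ± 0.71) and Tek (2.20 ± 0.02). FPKM is scaled to the length of each transcript, so these sums can be set beside each other only roughly. A sum over many short, overlapping transcripts can be raised, and 62.5% of the Egfl7 sum came from retained-intron transcripts. About 415 to 883 read pairs lay on Egfl7 in a library, against 697 to 1770 on Cdh5, which had the lower sum. The ranges over the saline libraries were separate for 3 pairs of neighbours: Rgs5 above Pdgfrb, Pdgfrb above Vwf, and Pecam1 above Kdr. The ranges of the other neighbours overlapped. Within each saline library, Cdh5 was nevertheless above Flt1, Flt1 above Pecam1 and Kdr above Tek, the last by little in library 2, while Egfl7 and Rgs5, Vwf and Cldn5, and Cldn5 and Cdh5 changed places between libraries.

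Counted over the 10 genes, 0 of 10 had an unadjusted p under 0.05 in limma for CFA3D against saline, where 4.45% of the 16096 gene sums did (3.65% higher and 0.801% lower). For CFA6D against saline the count was 0 of 10, beside 11.1% of gene sums (8.22% higher and 2.85% lower), and for CFA6D against CFA3D it was 0 of 10, beside 7.39% (3.06% higher and 4.34% lower). With a log2 change of at least 1 in size required as well, 0 of 10 passed in each comparison, beside 0.342%, 0.584% and 0.77% of gene sums. After Benjamini-Hochberg adjustment 0 of 10 and 0% of all gene sums passed 0.05 in any of the 3 comparisons, and the lowest adjusted p among the 10 was 0.997 on CFA3D, 0.609 on CFA6D and 0.679 between the days. Groups that did not overlap were seen for 0 of 10 genes on CFA3D (9.13% of gene sums), for 1 of 10 on CFA6D (Tek, 16.2%) and for 1 of 10 between the days (Cldn5, 16.7%). With 3 libraries a group, an exact two-sided permutation test of a single gene cannot go below p = 0.1.

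The median log2 change of the 10 genes was 0.15 on CFA3D, 0.03 on CFA6D and -0.10 between CFA6D and CFA3D, beside 0.05, 0.03 and -0.02 over all gene sums. The direction on CFA3D rested on library 2. Without it, 4 of the 10 genes were above saline and 6 below, with a median of -0.06, and without CFA3D library 3 all 10 were above saline with a median of 0.40. It also rested in part on saline library 2. Without that library 8 of the 10 genes were above saline and 2 below. Their median was then 0.07, beside 0.02 over all gene sums. On CFA6D the median was -0.08 without library 5 and 0.17 without library 4, and between the days it was 0.16 without CFA3D library 2, 0.07 without CFA6D library 4, -0.23 without CFA6D library 5 and -0.34 without CFA3D library 3. Without saline library 3 and CFA6D library 6 together, the medians were 0.21, 0.08 and -0.11, and 0 of 10 genes reached an unadjusted p under 0.05 in any comparison. The intervals of single genes still reached log2 changes of 0.39 (Pdgfrb) to 1.27 (Vwf) on CFA3D, so an absence of change was not shown.

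**Figure D2:**
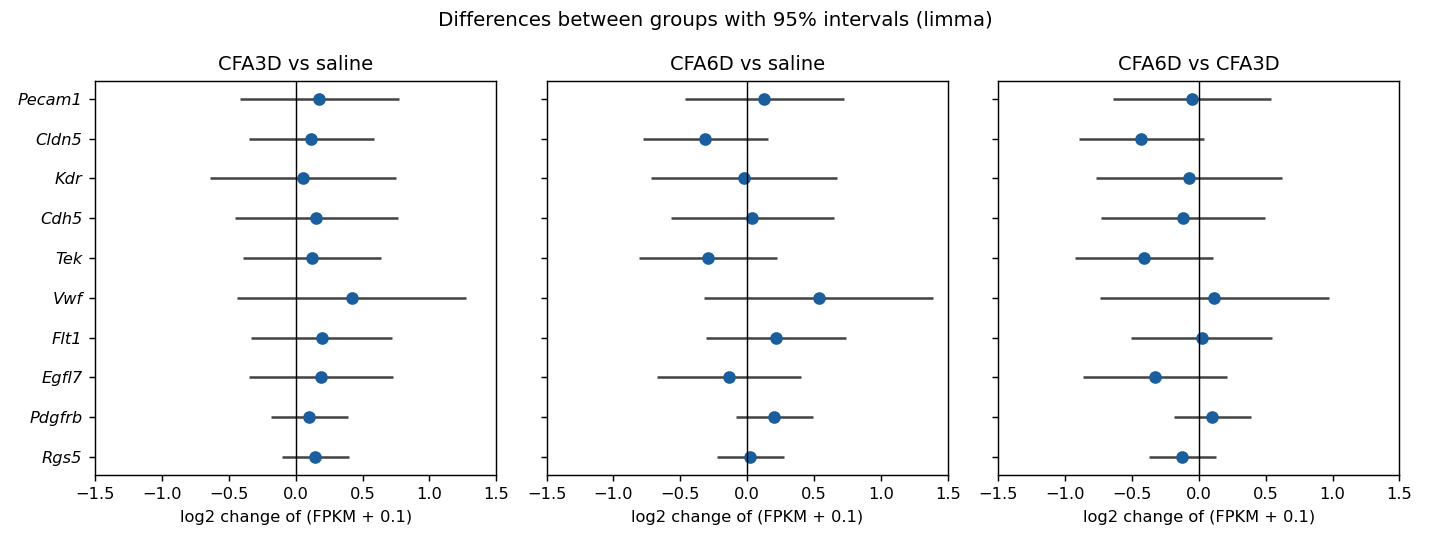
Log2 changes of (FPKM + 0.1) for the 10 genes in the 3 comparisons (x axis), with points for the limma estimate and lines for its 95% interval; every interval crosses 0, and those of Pdgfrb and Rgs5 are the narrowest.

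Most of the endothelial genes moved together from library to library. The pairwise correlation of log2 levels among the 7 endothelial genes other than Cldn5 had a median Pearson r of 0.81 (0.56 for Tek and Vwf to 0.97 for Pecam1 and Cdh5) over the 9 libraries. Without CFA3D library 2 the median was 0.65, without CFA3D libraries 2 and 3 it was 0.56, and without saline library 3 and CFA6D library 6 it was 0.93. Cldn5 had r of -0.36 to 0.21 with those 7 genes, and setting it apart was a choice made after its values were seen. Rgs5 went with the 7 at a median r of 0.82 and Pdgfrb at 0.66. All genes of a library share its depth, its pool of mice and its dissection, so these correlations describe the libraries and carry no p.

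**Figure D3:**
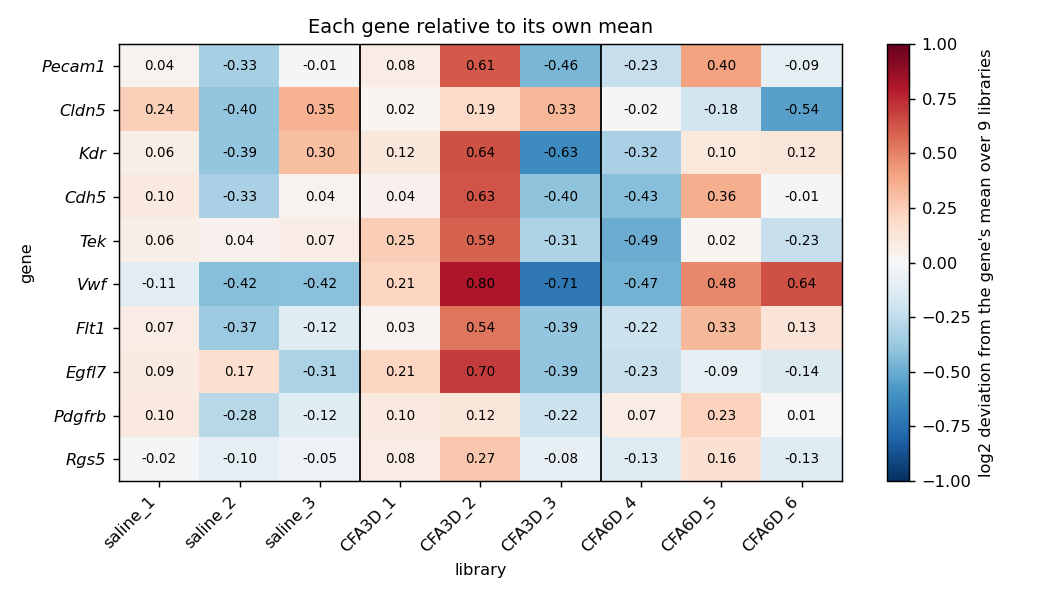
Log2 deviation of each gene (rows) from its own mean over the 9 libraries (columns, with lines between the groups). CFA3D library 2 is red in every row, from 0.12 for Pdgfrb to 0.80 for Vwf, and CFA3D library 3 is blue in every row except that of Cldn5, at 0.33.

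The 8 endothelial genes varied more within groups than most genes did. The pooled SD of log2 levels within groups was 0.57 for Vwf, larger than that of 94.9% of gene sums whose mean reached 1 FPKM, and 0.29 (Cldn5) to 0.44 (Kdr) for the other 7 endothelial genes, larger than that of 81.6% to 91.7%. Pdgfrb (0.17) and Rgs5 (0.14) were larger than 52.7% and 40.0%. The summed level of the 8 endothelial genes ran from 43.5 FPKM in CFA3D library 3 to 86.0 FPKM in CFA3D library 2, and other cell types differed between these libraries too. The summed level of 9 fibroblast genes was 580 FPKM in CFA3D library 3 and 1086 FPKM in CFA3D library 2, and ranged from 691 to 878 FPKM in saline and from 484 to 847 FPKM on CFA6D. For 9 macrophage genes the sums were 81.6 and 146 FPKM in those 2 CFA3D libraries, 96.0 to 119 FPKM in saline and 56.7 to 91.1 FPKM on CFA6D. CFA3D library 2 was the highest library for 5 of 9 fibroblast and 6 of 9 macrophage genes, and none of either list was at 0 in any library. The sum of 10 neuron genes went the other way, at 2792 FPKM in CFA3D library 2 and 3371 FPKM in CFA3D library 3, and the median r of those genes with the mean z score of the 8 endothelial genes was -0.36 over the 9 libraries. Neuron sums were 2451 to 3008 FPKM in saline and 3006 to 3724 FPKM on CFA6D, where 5 of the 10 were higher at an unadjusted p under 0.05 and the median log2 change was 0.26. The part of these cells in the endothelial levels was not tested.

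Levels were then set against the mean log2 level of the 8 endothelial genes of the same library, a step chosen after the values were seen and given with no test. The pooled SD within groups on this scale was 0.05 for Flt1, 0.10 for Pecam1, 0.10 for Tek and 0.10 for Cdh5, and 0.18 for Kdr, 0.24 for Egfl7, 0.30 for Vwf and 0.44 for Cldn5. Relative to that mean, Tek was at -1.45, -1.14 and -1.36 in saline, -1.31, -1.44 and -1.38 on CFA3D, and -1.63, -1.60 and -1.65 on CFA6D, so its CFA6D libraries were below all others. Flt1 was at 0.01, -0.11 and -0.10 in saline, -0.09, -0.05 and -0.01 on CFA3D, and 0.09, 0.15 and 0.15 on CFA6D, so its CFA6D libraries were above all others. The mean holds Tek and Flt1 themselves, and on this scale a rise of any endothelial gene lowers the rest. How many of all gene sums would be separate on this scale was not counted. On the plain scale the groups did not overlap for 16.2% of gene sums (CFA6D against saline) and 16.7% (CFA6D against CFA3D). The other 6 endothelial genes and both pericyte genes kept overlapping groups.

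**Figure D4:**
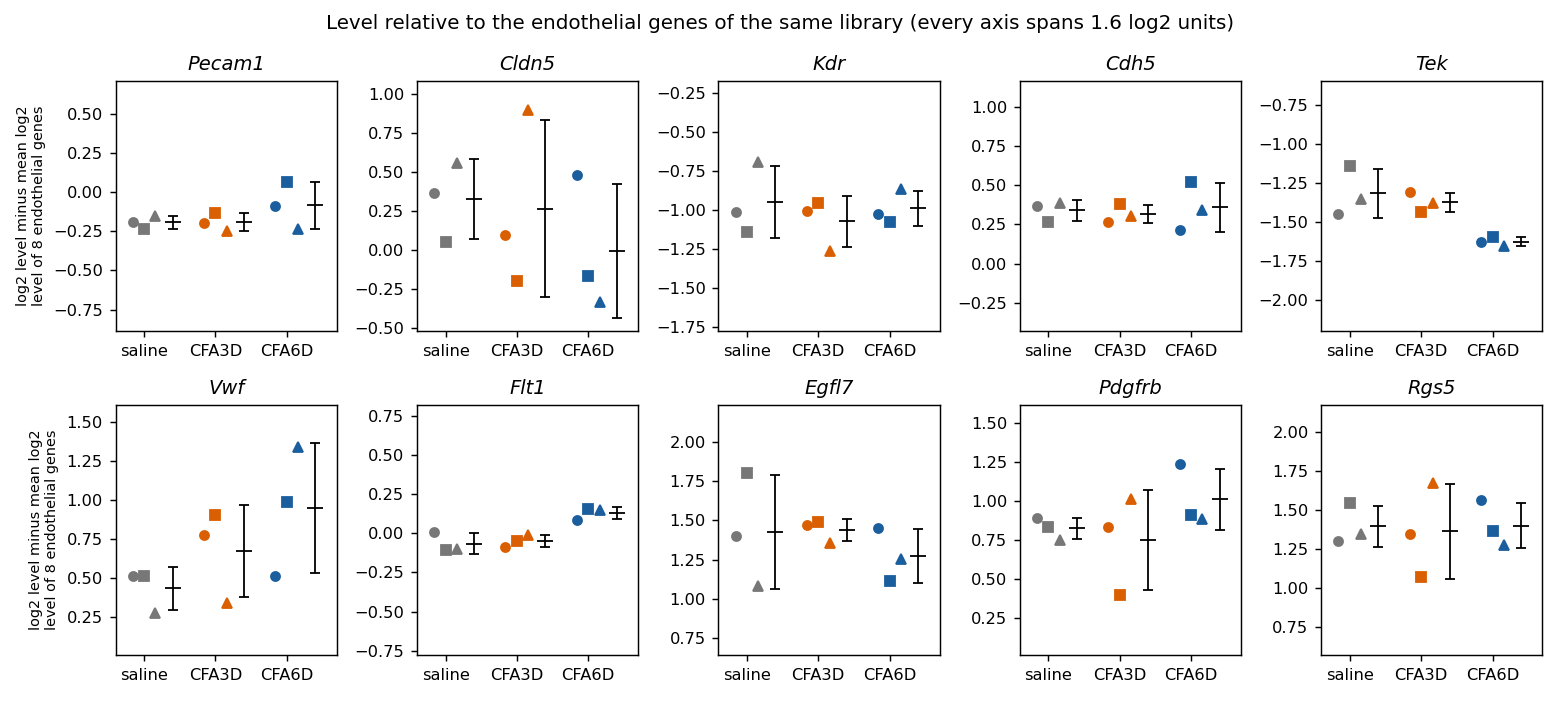
Log2 level of each gene minus the mean log2 level of the 8 endothelial genes in the same library (y axis, 1.6 log2 units in every panel) by group (x axis), with symbols as by library and the mean ± SD of 3 libraries in black. The CFA6D points lie below the rest for Tek, from -1.65 to -1.60, and above the rest for Flt1, from 0.09 to 0.15. The scale was chosen after the values were seen, and the share of all gene sums separate on it was not counted.

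Promoters of 3 genes that moved together (Kdr, Flt1, Tek) and of Cldn5, which did not, are shown. Cldn5 was set apart after its values were seen, and no link between sequence and level was tested. The windows are the 250 bases before the RefSeq start (GRCm38.p6), read 5′ to 3′ along the gene, with capitals for GGAA and its reverse complement TTCC, the core bound by ETS factors such as Erg and Fli1, which are known regulators of endothelial genes. Kdr is from chr5:75978456-75978705 (minus strand), Flt1 from chr5:147726012-147726261 (minus strand), Tek from chr4:94739039-94739288 (plus strand) and Cldn5 from chr16:18776597-18776846 (plus strand).
Kdr: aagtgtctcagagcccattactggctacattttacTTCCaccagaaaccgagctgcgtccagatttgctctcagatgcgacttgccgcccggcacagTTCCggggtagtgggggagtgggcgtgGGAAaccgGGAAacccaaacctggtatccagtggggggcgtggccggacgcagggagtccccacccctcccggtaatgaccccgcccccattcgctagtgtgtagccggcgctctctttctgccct
Flt1: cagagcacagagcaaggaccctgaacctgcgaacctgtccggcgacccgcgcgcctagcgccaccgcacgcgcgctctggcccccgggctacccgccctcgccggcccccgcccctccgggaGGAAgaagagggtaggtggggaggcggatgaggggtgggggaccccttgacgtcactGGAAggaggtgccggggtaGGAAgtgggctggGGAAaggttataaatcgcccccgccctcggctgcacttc
Tek: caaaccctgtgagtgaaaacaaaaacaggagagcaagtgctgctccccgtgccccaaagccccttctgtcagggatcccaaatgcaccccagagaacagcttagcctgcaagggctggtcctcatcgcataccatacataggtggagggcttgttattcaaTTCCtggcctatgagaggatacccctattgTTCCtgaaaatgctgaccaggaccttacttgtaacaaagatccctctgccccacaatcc
Cldn5: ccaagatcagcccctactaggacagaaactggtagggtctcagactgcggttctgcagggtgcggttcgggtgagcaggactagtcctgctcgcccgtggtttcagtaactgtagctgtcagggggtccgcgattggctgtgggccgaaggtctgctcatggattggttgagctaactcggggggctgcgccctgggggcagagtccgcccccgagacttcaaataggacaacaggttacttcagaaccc
GGAA in either direction stood 4 times each in the Kdr and Flt1 windows, 2 times in that of Tek and 0 times in that of Cldn5. Of 32851 windows of the same length, 93.5% held at least 1, 76.8% at least 2 and 33.4% at least 4, with a median of 3. GATA (or TATC) stood 1 time in Kdr and in Tek and 0 times in Flt1 and Cldn5, beside 53.6% of windows. ACAAT (or ATTGT), a core bound by SOX factors, stood 2 times in Tek and 0 times in the other 3, beside 27.7% of windows. The words were counted separately on both strands, and letters may be shared where matches adjoin. Windows were on hand for Cldn5, Kdr, Tek, Flt1, Rgs5 and Egfl7, the last with 3 starts. GGAA stood 3 times in that of Rgs5 and 5, 3 and 1 times in those of Egfl7. A match is only a run of letters, and a window without one says nothing of the factor.

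Single transcripts of the 10 genes were tested too. Of 58 annotated transcripts, 47 passed the minimum of 0.1 FPKM, and 0 of 47 had an unadjusted p under 0.05 in limma on CFA3D (beside 4.68% of 66562 transcripts), on CFA6D (6.81%) or between the days (5.42%). The most abundant transcript held 27.3% (Egfl7) to 100% (Cldn5, 1 transcript) of a gene's sum. For Vwf it was the 52-exon Vwf-203, a protein-coding transcript, at 4.71, 3.38 and 3.23 FPKM in saline, 5.91, 8.10 and 2.60 FPKM on CFA3D, and 3.82, 7.16 and 9.55 FPKM on CFA6D. CFA6D library 6 was the highest library for this transcript, while CFA3D library 2 was the highest for the Vwf sum.

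The genes whose log2 levels followed the endothelial genes most closely over the 9 libraries, of the 13165 gene sums whose mean reached 1 FPKM, were Ing5 (Pearson r = 0.99 with the mean z score of the 8 genes), Il1r1 (0.98), Boc (0.97), Plpp3 (0.97), Fgd6 (0.97), Zcchc24 (0.96), Traf4 (0.96), Ginm1 (0.96), Adamts10 (0.95) and Bhlhe40 (0.95). Il1r1 is the signalling receptor for interleukin-1. Of the 26 other endothelial markers at that level, 11 (42.3%) had r of at least 0.8, against 518 (3.94%) of all 13165. So did 3 of 9 fibroblast markers (33.3%) and 1 of 9 macrophage markers (11.1%). The median r was 0.74 for the endothelial, 0.62 for the fibroblast and 0.72 for the macrophage markers, so following these genes was not particular to endothelial markers. For the pericyte pair the closest genes were Msrb3 (0.97), Cavin1 (0.96), Peak1 (0.95), Myo1c (0.95), Plcd3 (0.95), Spindoc (0.94), Tpcn1 (0.94), Itgb4 (0.94), Abca1 (0.93) and Kcnk5 (0.93). Of 13 other pericyte markers 1 (7.69%) had r of at least 0.8 with the pair, against 291 (2.21%) of all 13165. Other endothelial markers did so in 3 of 26 cases (11.5%). Their median r was 0.63, against 0.48 for the pericyte markers, so the pair did not follow pericyte markers more closely. Cavin1 is a coat protein of caveolae, small pits of the cell surface. The points share library, pool and depth, and r was ranked over many genes, so the values are a description.

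Around the 10 genes, 143 further vessel genes in 12 lists were read from the same fit, and 141 were tested. On CFA3D 9 of 141 (6.38%) had an unadjusted p under 0.05, 6 higher and 3 lower, beside 4.45% of all gene sums. On CFA6D 13 (9.22%) did, 9 higher and 4 lower, beside 11.1%, and between the days 11 (7.80%) did, 4 higher and 7 lower, beside 7.39%. None passed an adjusted p of 0.05, and the lowest adjusted p was 0.997, 0.127 and 0.518. The median log2 changes of the 141 genes were 0.09, 0.03 and -0.08.

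Ligands of the receptors had small log2 changes with intervals across 0. Vegfa, the main VEGF, measured 10.8, 13.4 and 12.6 FPKM in saline, 13.0, 12.6 and 12.2 FPKM on CFA3D, and 13.9, 10.5 and 13.1 FPKM on CFA6D, with log2 changes of 0.04 ± 0.12 and 0.02 ± 0.12 (SE) against saline. Scaling to the upper quartile put both below 0, at -0.027 and -0.032, so neither has a settled direction. Angpt2, the context-dependent ligand of Tek, had log2 changes of -0.01 ± 0.15 and -0.13 ± 0.15, and Angpt1, its activating ligand, -0.06 ± 0.31 and -0.05 ± 0.31, both above 0 (0.28 and 0.12) without saline library 3 and CFA6D library 6. Tie1, the partner receptor of Tek, had changes of 0.07 ± 0.28 and 0.10 ± 0.28, and Pdgfb, the ligand of Pdgfrb, 0.15 ± 0.17 and -0.17 ± 0.17. Of 15 genes of the VEGF and angiopoietin list, 0 had an unadjusted p under 0.05 against saline on either day, and 1, Vegfd (a lymphatic growth factor), did between the days, at 0.68 ± 0.26 (adjusted p = 0.641). Of the 5 PDGF genes none did in any comparison.

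Among 30 other endothelial genes, Esam (an endothelial adhesion molecule) was higher on CFA3D by 0.29 ± 0.12 (0.13 for its most abundant transcript, no longer under an unadjusted p of 0.05), and its 3 CFA3D libraries (8.90, 10.6 and 8.06 FPKM) were above the 3 saline libraries (7.87, 7.13 and 7.35 FPKM). Apold1 (an immediate early gene of endothelial cells) was higher on CFA6D by 0.84 ± 0.29, at 0.703, 1.04 and 0.724 FPKM against 0.328, 0.316 and 0.635 FPKM in saline, and higher than on CFA3D by 0.88 ± 0.29. Cyyr1 was lower on CFA6D, with log2 changes of -0.42 ± 0.18 from saline and -0.55 ± 0.18 from CFA3D. Clec14a, an endothelial lectin-like surface protein, was lower on CFA6D than on CFA3D (-1.06 ± 0.45), with CFA3D values of 1.65, 3.20 and 0.931 FPKM that overlapped those of CFA6D (0.439, 1.10 and 0.919 FPKM). The change was -0.63 without CFA3D library 2 and -0.71 without CFA6D library 4. Esam was at 0.18 without CFA3D library 2, and Apold1 at 0.68 against saline and 0.72 against CFA3D without CFA6D library 5, each then no longer under an unadjusted p of 0.05. The same was true of Cyyr1 against saline without any 1 of 7 libraries. Over the list the medians were 0.08 on CFA3D and 0.05 on CFA6D.

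Junction and barrier genes went in both directions. Abcg2 (an efflux pump of barrier endothelium, also made by other cells) measured 13.8, 12.6 and 11.8 FPKM in saline, 17.6, 15.4 and 16.7 FPKM on CFA3D, and 16.4, 21.3 and 18.5 FPKM on CFA6D. Both CFA groups lay above saline, by 0.38 ± 0.11 and 0.54 ± 0.11, with adjusted p-values of 0.997 and 0.127. Bsg (basigin) was lower, with log2 changes of -0.25 ± 0.10 on CFA3D and -0.40 ± 0.10 on CFA6D, and of -0.13 on CFA3D without saline library 3. Slc7a5, an amino acid transporter, was higher on CFA6D by 0.55 ± 0.18, while Itm2a was lower (-0.35 ± 0.10). Between the days Itm2a, Ly6a and Ly6c1, which mark brain-type endothelium among other cells, were lower on CFA6D, with log2 changes of -0.42 ± 0.10, -0.58 ± 0.14 and -0.51 ± 0.15 and without overlap of the groups. Jup (plakoglobin) was higher by 0.23 ± 0.08 and 0.34 ± 0.08, and Marveld2 (tricellulin) was lower on CFA3D (-0.71 ± 0.22). Without CFA3D library 2 the Jup change on CFA3D was 0.17 and lost its unadjusted p under 0.05. The barrier list as a whole had medians of 0.10 and -0.08, and the junction list 0.05 and -0.18.

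Few genes of the vessel segments had an unadjusted p under 0.05. On CFA6D the arterial genes Bmx and Sema3g were higher than saline by 1.06 ± 0.35 and 0.54 ± 0.20, and Jag1 was lower than on CFA3D (-0.42 ± 0.12). Bmx was at 0.496, 0.585 and 1.30 FPKM on CFA6D, the last in library 6, against 0.241 to 0.360 FPKM in saline. Without that library the Bmx change was 0.68 against saline, and 0.52 against CFA3D in place of 0.90. Sema3g was at 0.35 without CFA6D library 4 and lost its unadjusted p under 0.05. Ackr1, the chemokine-binding protein of venules, measured 37.2, 33.6 and 27.1 FPKM in saline, 39.0, 38.5 and 42.2 FPKM on CFA3D, and 51.5, 37.7 and 41.3 FPKM on CFA6D, and was higher on CFA6D by 0.41 ± 0.14, or by 0.29 without CFA6D library 4 or saline library 3, both no longer under that p. Nr2f2 (COUP-TFII, which sets venous identity and is also found in other cells) was higher on CFA3D by 0.37 ± 0.14 and lower on CFA6D than on CFA3D (-0.44 ± 0.14), with 0.24 and -0.30 without CFA3D library 2, both no longer under an unadjusted p of 0.05. Esm1 (endocan, a marker of tip cells) was higher on CFA6D by 1.21 ± 0.43 at a low level, 0.739 to 1.30 FPKM against 0.200 to 0.725 FPKM, and at 0.97 without CFA6D library 5 it was no longer under that p. The lymphatic genes Lyve1 and Ccl21a were higher by 0.62 ± 0.24 on CFA3D and by 0.53 ± 0.15 on CFA6D. Lyve1 was no longer under that p at 0.53 without saline library 1 or 2, and Ccl21a at 0.32 without saline library 3 and CFA6D library 6 together. The adhesion molecules and chemokines of activated endothelium, 11 tested, had medians of 0.27 and 0.21, with 0 at an unadjusted p under 0.05 on CFA3D and 2 (Ackr1, Esm1) on CFA6D. Medians on CFA3D and CFA6D were 0.16 and 0.19 for the 11 arterial, 0.20 and 0.09 for the 9 venous or capillary, 0.08 and 0.21 for the 7 lymphatic and 0.20 and 0.02 for the 6 plasmalemma vesicle genes, the last with 0 of 6 under that p in any comparison.

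Among 17 other pericyte genes, Cox4i2 was higher on CFA3D by 0.65 ± 0.20 (0.088 for its most abundant transcript, no longer under an unadjusted p of 0.05) and Higd1b lower on CFA6D (-0.65 ± 0.16). Higd1b measured 1.82, 1.81 and 1.62 FPKM on CFA6D, all below its saline values of 2.97, 2.97 and 2.51 FPKM, while the log2 changes of Pdgfrb and Rgs5 there were 0.20 and 0.02. The medians of the list were 0.09 and 0.05. Of 10 smooth muscle genes, 1 had an unadjusted p under 0.05 on CFA3D, Des (desmin, also made by skeletal muscle), with a log2 change of -1.82 ± 0.78, and of -0.998 without saline library 2. It stood at 9.83 FPKM in saline library 2, where the sum of 8 skeletal muscle genes was 175 FPKM against 5.16 to 40.1 FPKM in the other saline libraries and 2.09 to 10.3 FPKM on CFA3D. None of the 8 was at 0 in any library, and their part in the Des change was not tested. The 10 smooth muscle genes had medians of -0.01 on CFA3D and 0.43 on CFA6D. On CFA6D 7 of the 10 were above saline, and 0 had an unadjusted p under 0.05 in limma. Their sum was 48.55 FPKM in CFA6D library 5, against 20.53 and 31.41 FPKM in CFA6D libraries 4 and 6 and 23.06 to 34.18 FPKM in saline. None of the genes named in these lists passed an adjusted p of 0.05.

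Of the vessel genes named, Abcg2 on both days, Marveld2 and Cox4i2 on CFA3D, Jup, Itm2a, Slc7a5, Bsg, Bmx, Ccl21a and Higd1b on CFA6D, and Cyyr1, Itm2a, Ly6a, Ly6c1 and Jag1 between the days stayed under an unadjusted p of 0.05 whichever single library was left out. Some of these lost it under other settings. With the most abundant transcript in place of the sum, Cox4i2 (0.088) and Marveld2 (-0.72) on CFA3D, Bsg (-0.31) on CFA6D, and Cyyr1 (-0.39) and Ly6a (-2.35) between the days were no longer under it, nor was Marveld2 (-0.60) after quantile normalization or Ccl21a (0.32) without saline library 3 and CFA6D library 6. Others also rested on libraries not named above. Against saline these were saline libraries 2 and 3 and CFA3D library 1 for Esam (0.26 to 0.31), saline libraries 2 and 3 for Jup on CFA3D (0.21 and 0.21), saline library 2 for Nr2f2 (0.27), saline libraries 1 and 2 for Apold1 (0.72 and 0.70) and Esm1 (0.95 and 1.01), and saline library 3 and CFA6D library 5 for Sema3g (0.40 and 0.48). Lyve1 also depended on each CFA3D library (0.60 to 0.66), while Bsg on CFA3D (-0.13 to -0.27) and Des lost that p without most single libraries. Between the days the further libraries were CFA3D library 1 for Apold1 (0.72), Bmx (0.70), Esm1 (1.10) and Clec14a (-1.08), CFA6D library 5 for Esm1 (1.06), saline library 1 for Clec14a (-1.06), and CFA3D libraries 2 and 3 and CFA6D libraries 4 and 5 for Vegfd (0.58 to 0.70).

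**Figure D5:**
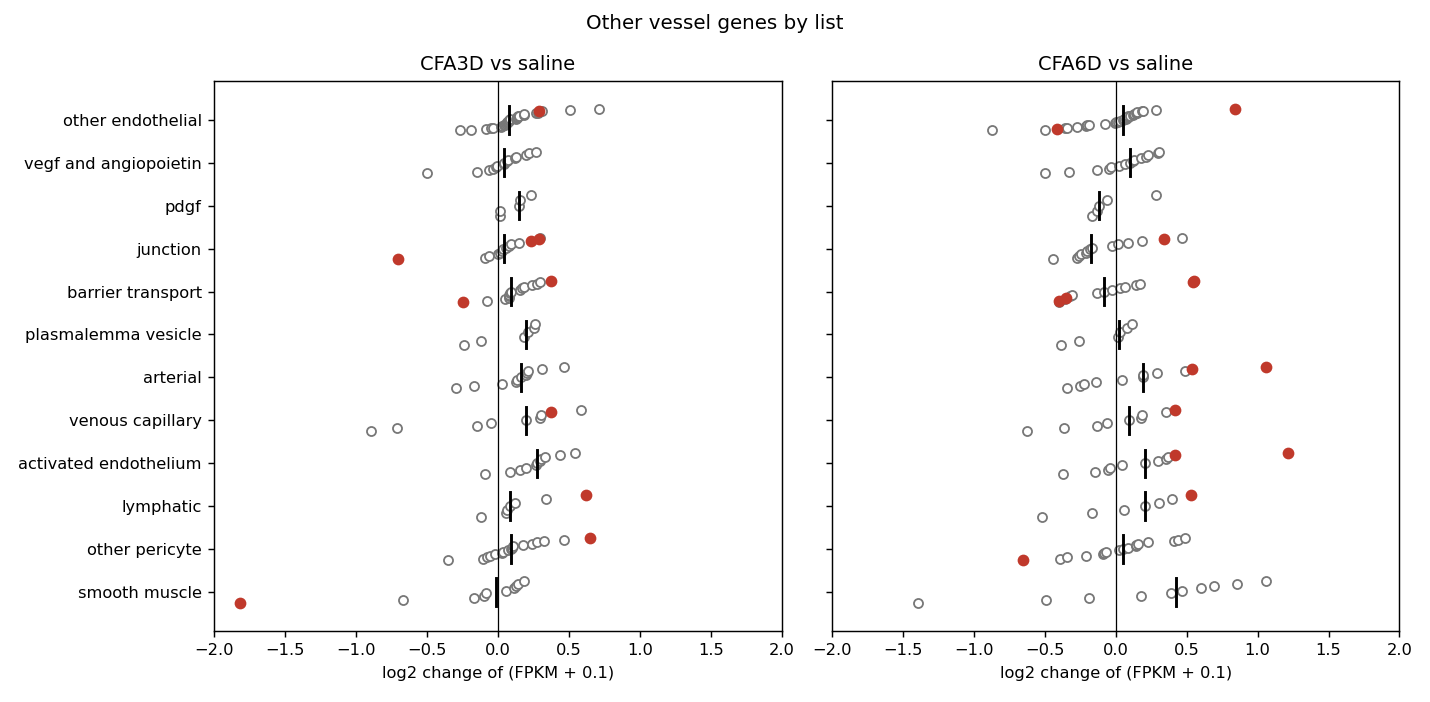
Log2 change of (FPKM + 0.1) against saline (x axis) for each gene of the 12 vessel lists (y axis) on CFA3D and CFA6D. Filled red points have an unadjusted p under 0.05, open points do not, and black bars are list medians; genes in 2 lists appear in both.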

How the data were processed

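RNA of 9 mouse TG libraries (3 saline, 3 CFA3D, 3 CFA6D), each a pool from 3 mice, had been sequenced after ribosomal RNA removal. The authors deposited FPKM values per mRNA transcript, and the sources differ on how they were made. The submitters' processing notes name Bowtie 0.12.2 and mm8, while the study's methods name a later mouse build (GRCm38) and CLC Genomics Workbench for expression levels. Of 102122 mRNA transcripts listed, 101539 were matched by identifier to GENCODE M21 and summed to 21809 gene sums. No per-sample column was left out (0). The 16096 sums whose mean reached 0.1 FPKM were tested on log2(FPKM + 0.1) with limma 3.58.1 (R 4.3.3, eBayes with trend, 3 groups in 1 fit, all 9 libraries) and Benjamini-Hochberg adjustment over all sums. Fold changes are on that scale, which understates changes of low genes. P-values measure the spread between pools. The fit was tested on simulated data. Approximate depth was read from the most common low value of FPKM times length in single-transcript genes, taken as a single pair. Counts of pairs are therefore estimates, and no count test was run. Motifs were searched in RefSeq windows. Python 3.11.15, numpy 2.4.6, pandas 2.3.3 and matplotlib 3.10.9 were used.

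The 10 genes and all lists were chosen with earlier results of these data known. Vessel genes were named where an unadjusted p was under 0.05 in any comparison, at most 4 a list and comparison by smallest p, with Vegfa, Angpt1, Angpt2, Tie1 and Pdgfb in any case. The 10 gene sums with the highest r to each score were named as most alike. Alternatives were other pseudocounts, filters, scalings, a fit of 2 groups, the most abundant transcript, a replicate block and leaving out each library. Leaving out saline library 3 and CFA6D library 6 together, and all settings for the vessel genes, were added after the data were seen. No separate batch is given in the labels.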

Additional observations from a re-analysis of the deposited data

Results flagged for a closer look

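Vegfd and Jag1 are listed because all 3 CFA3D libraries lay on one side of the saline mean and all 3 CFA6D libraries on the other. Vegfd measured 1.04, 0.849 and 1.72 FPKM in saline, 0.990, 0.669 and 0.729 FPKM on CFA3D, and 1.37, 1.28 and 1.31 FPKM on CFA6D, with a log2 change of 0.68 between CFA6D and CFA3D (limma, adjusted p = 0.641). The CFA6D values lay within the saline range, while CFA3D libraries 2 and 3 lay below it. Jag1, a Notch ligand of arterial endothelium that other cells also make, measured 8.06, 7.01 and 6.41 FPKM in saline, 7.22, 9.32 and 8.13 FPKM on CFA3D, and 6.26, 6.29 and 5.73 FPKM on CFA6D, with a log2 change of -0.42 between CFA6D and CFA3D (limma, adjusted p = 0.616). Both CFA groups are set against the same 3 saline libraries, and the opposite sides themselves were not tested.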

How the results depend on the processing

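No setting brought any of the 10 genes past a log2 change of 1 in size with an unadjusted p under 0.05. Of the scalings, upper quartile scaling moved the median of all gene sums most, by -0.07 on CFA3D and -0.05 on CFA6D. The medians of the 10 genes before this scaling were only 0.15 and 0.03, so shifts of this size matter for their direction. Of 550 log2 changes of the 10 genes under alternatives, 268 under other settings and 232 with 1 library left out held their direction and side of the threshold, while 11 and 29 changed direction and 1 and 9 came under an unadjusted p of 0.05. Many of the 550 could not change direction. A log2 change stays the same with a replicate block, only 2 groups fitted, or a library of the third group left out. The replicate block (CFA3D against saline) left the median at 0.15 and 0 genes at an unadjusted p under 0.05. Libraries of the same replicate number had deviations correlated at 0.09, -0.08 and 0.03, and those of different numbers at -0.11 to 0.06. With 3 libraries a group these values cannot show whether the numbers pair the libraries. Under the replicate block Esam (0.29), Jup (0.23) and Bsg (-0.25) lost their unadjusted p under 0.05. Other vessel genes that lost it were, with the most abundant transcript, Esam (0.13), Bsg (-0.14), Lyve1 (0.47) and Des (-1.79) on CFA3D, Cyyr1 (-0.32) and Ackr1 (0.34) on CFA6D, and Vegfd (0.46) and Clec14a (-1.06) between the days. After quantile normalization they were Jup (0.15), Nr2f2 (0.29) and Des (-1.74) on CFA3D and Vegfd (0.58) between the days, and after upper quartile scaling Jup (0.16). Des also lost it with a pseudocount of 1 (-1.26) or no filter, Clec14a with no filter or only 2 groups, Bsg on CFA3D with only 2 groups, and Cyyr1 against saline with a minimum mean of 1 FPKM. Fitting only the 2 groups compared gave 1 gene (Cldn5) in place of 0 between CFA6D and CFA3D, beside 1423 of 16096 gene sums in place of 1190.

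Directions turned in these cases, and the cause was not tested. Upper quartile scaling gave log2 changes of -0.013 for Kdr and -0.027 for Vegfa on CFA3D, and of -0.018 for Cdh5, -0.032 for Rgs5 and -0.032 for Vegfa on CFA6D. Quantile normalization gave Vegfa -0.027 on CFA3D, and Rgs5 -0.034 and Vegfa -0.037 on CFA6D. The transcript with the highest mean gave Vegfa -0.080 on CFA3D, Kdr 0.16 and Vegfa -0.72 on CFA6D, and Kdr 0.11 and Flt1 -0.028 between the days. Without saline library 3 and CFA6D library 6 together, Angpt1 was at 0.28 on CFA3D, Kdr at 0.056 and Angpt1 at 0.12 on CFA6D, and Pecam1 at 0.0082, Vwf at -0.096 and Flt1 at -0.0027 between the days.

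Leaving out 1 library at a time gave 0 to 2 of the 10 genes at an unadjusted p under 0.05 on CFA3D, 0 to 1 on CFA6D and 0 to 2 between the days. Of all gene sums, 3.04% to 9.46% were under it on CFA3D, 8.92% to 12.4% on CFA6D and 5.06% to 8.41% between the days. On CFA3D the log2 changes ran from -0.091 to 0.45 (Pecam1), -0.11 to 0.26 (Cldn5), -0.25 to 0.39 (Kdr), -0.12 to 0.40 (Cdh5), -0.088 to 0.36 (Tek), -0.044 to 0.42 (Flt1), -0.072 to 0.47 (Egfl7), -0.19 to 0.38 (Tie1), -0.048 to 0.11 (Vegfa), -0.31 to 0.28 (Angpt1) and -0.16 to 0.094 (Angpt2). On CFA6D they ran from -0.061 to 0.26 (Pecam1), -0.21 to 0.13 (Kdr), -0.16 to 0.24 (Cdh5), -0.070 to 0.071 (Rgs5), -0.015 to 0.31 (Tie1), -0.065 to 0.14 (Vegfa) and -0.29 to 0.29 (Angpt1). Between the days they ran from -0.32 to 0.22 (Pecam1), -0.41 to 0.22 (Kdr), -0.37 to 0.15 (Cdh5), -0.29 to 0.47 (Vwf), -0.20 to 0.26 (Flt1) and -0.0086 to 0.16 (Pdgfrb). Each of the 10 genes rested on about 215 read pairs or more in a library, and on 3 pools a group.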
